A study of Mus musculus with 36 samples.

Results

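The aminoacyl-tRNA synthetase genes of mouse 3T3-L1 cells were described in cells labelled as knockout (KO) or wild type (WT) for Zfp217, a zinc finger protein, at day 0 and day 2 of fat cell differentiation. The 39 genes were taken by symbol from the 52505 gene rows of the deposited expression table: the single-letter code of an amino acid followed by ars, with or without a closing 1 or 2, together with Eprs, Farsa, Farsb, Aimp1 and Aimp2. They comprise 20 cytosolic enzymes, 17 mitochondrial enzymes, whose names end in 2, and the scaffold genes Aimp1 and Aimp2, which encode no synthetase. All 39 had values above 0 in all 12 libraries and all 39 passed the filter on low values, a mean of at least 1 FPKM (reads relative to gene length and library depth) that 12961 genes met, so no member was lost.

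3T3-L1 cells are mouse preadipocyte-like fibroblasts that differentiate into fat cells under hormonal induction. The 4 groups, of 3 RNA-seq libraries each, were zfp217-/- cells at day 2, zfp217-/- cells at day 0, wild type cells at day 2 and wild type cells at day 0, and they share the cell line and a cocktail (MDI) of DEX, isobutyl-methylxanthine, insulin and indomethacin. The day 0 libraries carry the same treatment label as the day 2 libraries, so whether day 0 precedes the cocktail is read from the time label alone, and a response below is the change at day 2 against day 0. The labels do not say whether the knockout line was a single clone, nor whether replicates were cultured separately, and the p-values therefore cover only library-to-library spread, possibly technical. Zfp217 itself averaged 22.6 FPKM in KO and 15.1 FPKM in WT at day 2, and 26.0 FPKM in KO and 22.0 FPKM in WT at day 0. Its message was thus higher in the libraries labelled KO, with log2 changes of 0.55 and 0.23 (exact permutation p = 0.1 each, 2-sided, the smallest that 3 against 3 allows). The RNA level does not bear out the label, though it cannot show whether the protein was lost. Every direction below is between libraries as they are labelled. Recovered read totals were 18073258 to 23114994 per library. The WT day 0 replicate 3 library stood apart, with 23 genes at least 4-fold from both other libraries of its group, against 1 to 5 such genes in the other libraries.

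Aminoacyl-tRNA synthetases join each amino acid to its tRNAs and so supply both translation systems of the cell, the cytosolic ribosomes and the ribosomes inside mitochondria. Most amino acids have separate cytosolic and mitochondrial enzymes, both encoded in the nucleus, while Gars and Kars each make the glycyl and lysyl enzyme for both compartments. Several cytosolic enzymes sit in a multi-synthetase complex held together by Aimp1, Aimp2 and Eef1e1, and in mammals many cytosolic synthetase genes are known targets of the amino acid response, in which ATF4 binds C/EBP-ATF response elements.

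Promoter stretches of 5 members are shown first, for the response element core or the NRF1 core that they hold. Windows from 250 bases before to 50 bases after the annotated start (RefSeq, GRCm38.p6) were found for 29 of the 39 members, as 31 windows. The C/EBP-ATF response element core TGATGNAA, searched on both strands, was present in 5 of 13 windows of cytosolic enzymes (38.5%, in Aars, Gars, Iars, Tars and Yars) and in 0 of 15 windows of mitochondrial enzymes, against 3.97% of all 32851 windows. The NRF1 core CGCANGCG was present in 6 of 13 cytosolic windows (46.2%), in 4 of 15 mitochondrial windows (26.7%) and in 8.21% of all windows. The ETS core CCGGAAGT was present in 2 of 13 cytosolic windows (15.4%), in 1 of 15 mitochondrial windows (6.67%) and in 3.89% of all windows. A match is a description of letters and not a binding site. The stretches below run 5′ to 3′ on the gene's strand. Those of Aars and Wars2 lie wholly inside their RefSeq gene spans, which begin at 111027778 and 99140107. Capitals mark the response element core, as its reverse complement, in Aars (chr8:111033686-111033781, plus strand), Gars (chr6:55037927-55038000, plus strand) and Tars (chr15:11399659-11399717, minus strand).
Aars: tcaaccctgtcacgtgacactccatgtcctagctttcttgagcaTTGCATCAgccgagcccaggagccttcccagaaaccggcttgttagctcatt
Gars: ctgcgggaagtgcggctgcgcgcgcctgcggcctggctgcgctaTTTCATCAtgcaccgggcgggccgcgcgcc
Tars: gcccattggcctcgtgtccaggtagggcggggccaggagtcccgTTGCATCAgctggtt
In the mitochondrial genes Vars2 (chr17:35667593-35667683, minus strand) and Wars2 (chr3:99140983-99141078, plus strand) capitals mark an NRF1 core that reads the same on both strands. Further NRF1 cores stay in lower case, at -41 and -21 from the start in Vars2 and at -52 in Gars.
Vars2: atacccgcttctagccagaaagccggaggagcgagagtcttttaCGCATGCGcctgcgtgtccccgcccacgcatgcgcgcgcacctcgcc
Wars2: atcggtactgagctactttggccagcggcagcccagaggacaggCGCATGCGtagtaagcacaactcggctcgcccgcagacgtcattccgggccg
All 5 genes with a response element core fell in KO against WT at day 2, as did 19 of the 20 cytosolic enzymes and 40.6% of all genes. At day 0 Gars, Iars, Tars and Yars fell and Aars did not pass the test. Vars2 fell and Wars2 rose in KO against WT at day 2.

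Cytosolic synthetase messages were the more abundant. Per gene, the cytosolic enzymes had a median of 62.3 FPKM in KO and 130 FPKM in WT at day 2, and 80.3 FPKM in KO and 132 FPKM in WT at day 0. The mitochondrial enzymes had medians of 7.57 FPKM in KO and 13.8 FPKM in WT at day 2, and 8.25 FPKM in KO and 8.48 FPKM in WT at day 0. Gars and Aars headed the order in both WT groups, Aars headed both KO groups, and Mars2 was lowest in 3 of the 4 groups and Pars2 in WT at day 2. The order is only partly resolved, since 14 of 38 neighbouring pairs overlapped between their libraries in KO at day 2, 14 in WT at day 2, 8 in KO at day 0 and 16 in WT at day 0. Levels of different genes rest on the lengths the authors used, which the values imply to run from 864 bases for Rars2 to 11294 bases for Mars2. The length implied for Mars2 is longer than its RefSeq gene (chr1:55237177-55240058). Mars2 had 228 to 1452 reads in a library, more than Pars2 in each, at 90 to 212. Its last place in FPKM thus depends on that length. Within a group the libraries lay close together, with a median coefficient of variation of 2.8% over the 38 members other than Lars2 and a highest of 13.5%, for Nars2 in WT at day 0. Members had from 90 reads, for Pars2, to 15798 reads, for Eprs, in a library.

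Summed over the 20 cytosolic enzymes, the level was 1472 ± 5.48 FPKM in KO and 2827 ± 12.4 FPKM in WT at day 2 (SD, n = 3 each), and 1908 ± 10.5 FPKM in KO and 2899 ± 22.4 FPKM in WT at day 0. The cytosolic sum was lower in every KO library than in any WT library, and within KO lower at day 2 than at day 0. The 16 mitochondrial enzymes other than Lars2 summed to 178.3 ± 2.97 FPKM in KO and 310.6 ± 1.15 FPKM in WT at day 2, and to 174.0 ± 3.47 FPKM in KO and 195.1 ± 1.2 FPKM in WT at day 0. Only the WT day 2 libraries stood high, and no library of another group reached them. In bulk RNA, fewer cells of a type and less RNA per cell cannot be told apart.

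**Figure D1:**
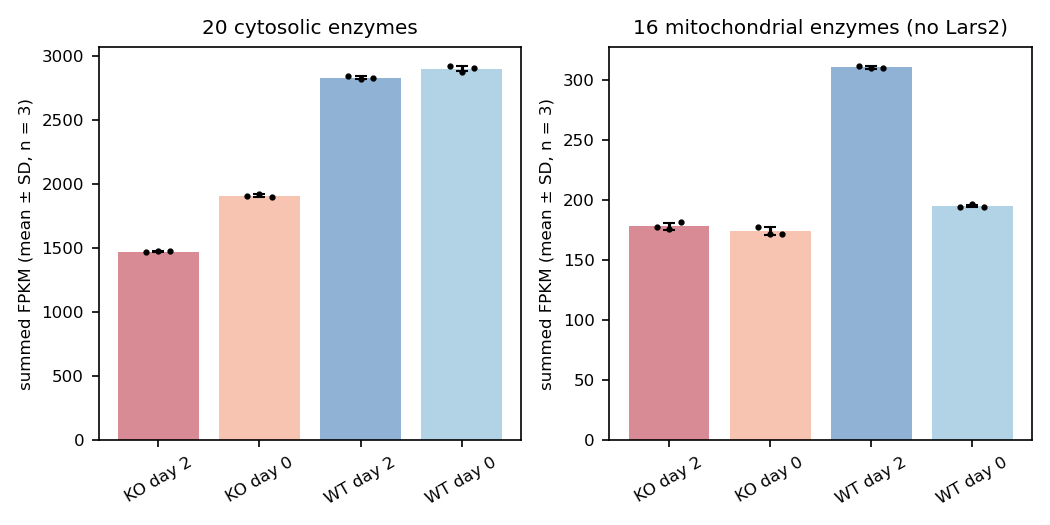
Summed FPKM of the 20 cytosolic enzymes (left) and of the 16 mitochondrial enzymes other than Lars2 (right) in KO at day 2 and day 0 and WT at day 2 and day 0, as bars for the mean, error bars for the SD and points for the 3 libraries. The cytosolic sums were 1472 in KO and 2827 in WT at day 2, and 1908 in KO and 2899 in WT at day 0, and the mitochondrial sum was highest in WT at day 2, at 310.6.

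**Figure D2:**
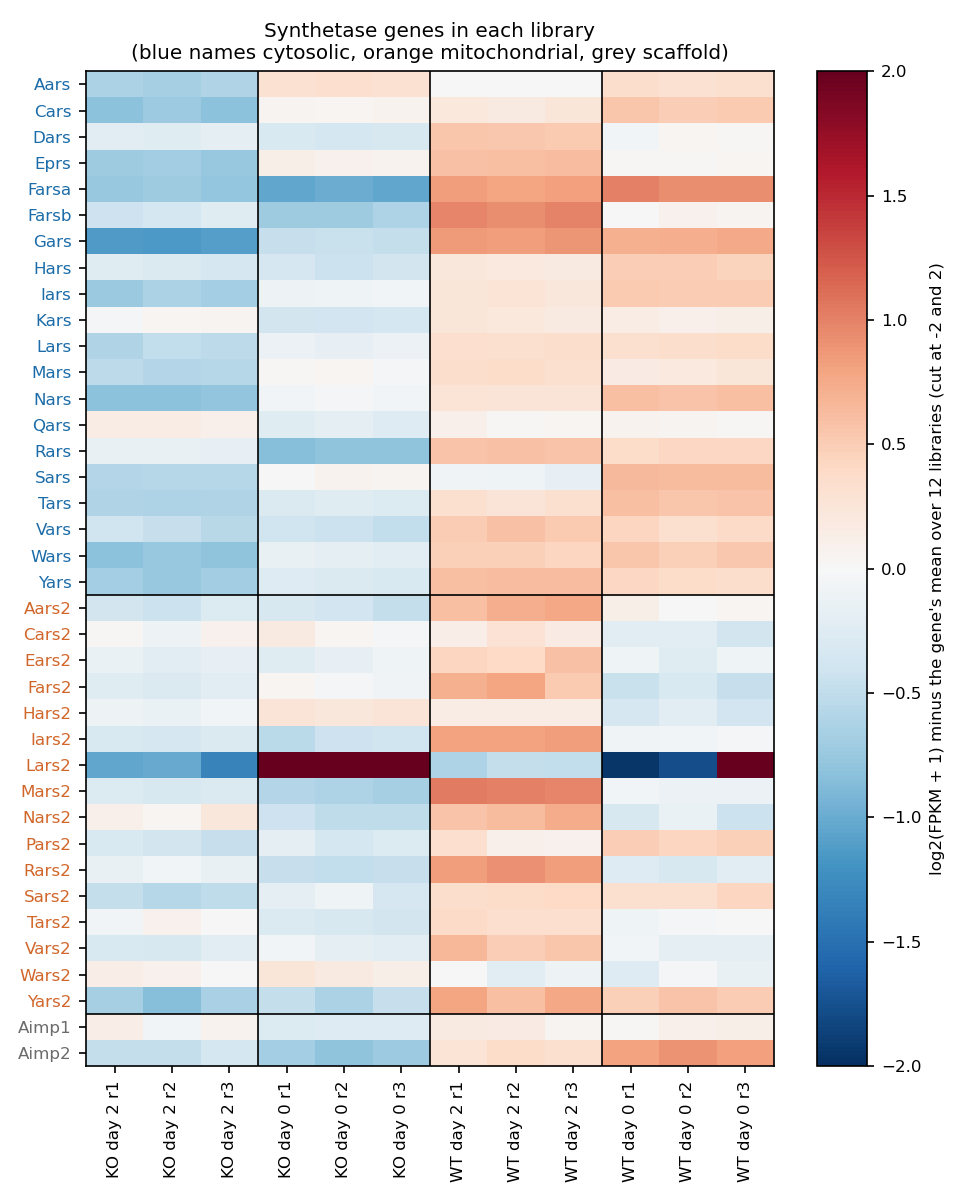
Each of 38 members (rows, blue names cytosolic, orange mitochondrial, grey scaffold) in each library (columns), as log2(FPKM + 1) minus the gene's mean over the 12 libraries, with the colour scale limited at -2 and 2. Most cytosolic genes were low in the KO day 2 libraries, and most mitochondrial genes were high in the WT day 2 libraries.

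At day 2 most synthetase messages were lower in KO than in WT. Of the 39 members 35 fell and 2 rose, where 40.6% of all genes tested fell and 40.8% rose (limma, adjusted p under 0.05, with changes given below as log2 ± SE). The median log2 change of the members was -0.90 and that of all genes was 0. Of the cytosolic enzymes 19 of 20 fell (median -0.92), and of the mitochondrial enzymes 15 of 17 fell (median -0.85). The libraries of the groups did not overlap in 37 of the 39 members, against 82.2% of all genes. At least 1.5-fold, on the log2(FPKM + 1) scale, were 27 of the falls and 0 of the rises, where 22.1% of all genes fell and 22.7% rose that far. Qars, the glutaminyl enzyme, and Wars2, the mitochondrial tryptophanyl enzyme, were the 2 that rose, and Lars2 and Aimp1 did not pass the test.

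Both rises at day 2 were small. Qars had 103, 103 and 100.1 FPKM in KO and 100.4, 95 and 95.8 in WT at day 2, and 78.8, 81.3 and 77.5 in KO and 98, 96.4 and 94.3 in WT at day 0. The KO and WT libraries of Qars overlapped at day 2, with a log2 change of 0.07 ± 0.03 (adjusted p = 0.0303). Wars2 had 7.97, 7.63 and 7.12 FPKM in KO and 7.07, 5.97 and 6.61 in WT at day 2, and 8.65, 8.26 and 7.84 in KO and 5.78, 7.01 and 6.35 in WT at day 0. Its log2 change at day 2 was 0.18 ± 0.07 (adjusted p = 0.035). Leaving out KO day 2 replicate 1 or 2, or WT day 2 replicate 2 or 3, ended both calls, with adjusted p-values of 0.0793, 0.0887, 0.111 and 0.0919 for Qars and 0.115, 0.0756, 0.144 and 0.0595 for Wars2.

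At day 0 the members were more divided. In KO against WT 29 fell and 6 rose, where 44.2% of all genes fell and 38.3% rose, and the medians were -0.48 over the members and -0.06 over all genes. Of the cytosolic enzymes 18 of 20 fell (median -0.62), Eprs rose and Aars did not pass the test. Of the mitochondrial enzymes 9 of 17 fell and 5 rose (Cars2, Fars2, Hars2, Lars2 and Wars2), with a median of -0.20. Changes of at least 1.5-fold were 16 falls and 1 rise, that of Lars2, where 23.5% of all genes fell and 20.5% rose that far. The groups did not overlap in 35 of the 39 members, near the 84% of all genes. The comparisons at the 2 days use different libraries, but each shares its libraries with the comparisons of day 2 against day 0.

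**Figure D3:**
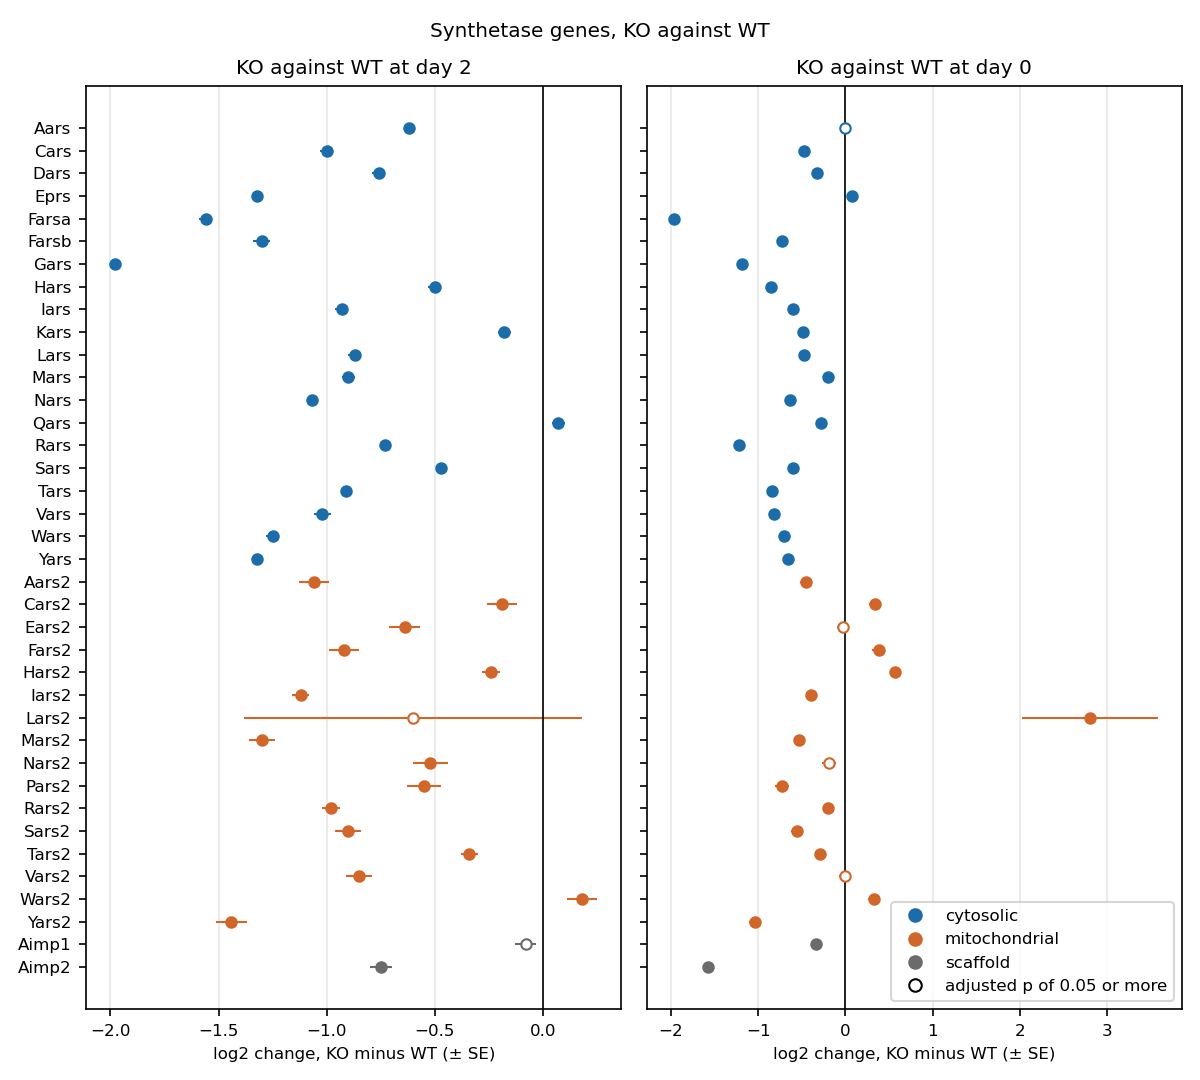
Log2 change of 38 members in KO minus WT at day 2 (left) and day 0 (right), with bars for the standard error of the limma fit, filled points for adjusted p under 0.05, and a separate horizontal scale in each panel. Points left of 0 were lower in KO, and the lowest were Gars at -1.98 at day 2 and Farsa at -1.97 at day 0.

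At day 2 against day 0, 6 of 17 mitochondrial enzymes rose in KO cells and 13 of 17 in WT cells. In KO, 15 members rose and 17 fell, where 33.9% of all genes rose and 38.8% fell, with medians of -0.11 over the members and -0.03 over all genes. In WT, 22 members rose and 10 fell, where 34.2% of all genes rose and 46.5% fell, with medians of 0.14 over the members and -0.11 over all genes. Of the mitochondrial enzymes 5 fell in KO (median -0.06) and only Pars2 fell in WT (median 0.61). Of the cytosolic enzymes 7 rose and 12 fell in KO (median -0.41), and 9 rose and 8 fell in WT (median 0.00). The medians near 0 changed sign with the scaling: that of the mitochondrial enzymes in KO was 0.03 under quantile normalization, and that of the cytosolic enzymes in WT was -0.06 under quantile normalization and 0.10 under median-of-ratios scaling. At least 1.5-fold were 2 of the rises and 9 of the falls in KO, and 10 of the rises and 1 of the falls in WT. Of all genes 11.7% rose and 14.9% fell that far in KO, and 17.6% rose and 25.8% fell in WT. The libraries of the 2 days did not overlap in 31 members in KO and in 32 in WT, near the 74.8% of all genes in KO and 82.2% in WT.

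The difference between the responses was tested by the interaction term, the KO response minus the WT response. It was negative and past the threshold in 27 members and positive in 8, where 33% of all genes were negative and 40.8% positive, with medians of -0.42 over the members and 0.06 over all genes. Among mitochondrial enzymes it was negative in 14 of 17 and positive in 0 (median -0.61), and Pars2, Tars2 and Wars2 did not pass the test. Among cytosolic enzymes it was negative in 13 and positive in 6 (Farsa, Hars, Kars, Qars, Rars and Sars), with a median of -0.40, and Tars did not pass. Both scaffold genes were positive. At least 1.5-fold were 14 of the negative differences and 1 of the positive, that of Aimp2, where 17.6% of all genes were negative and 23.3% positive by that much.

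**Figure D4:**
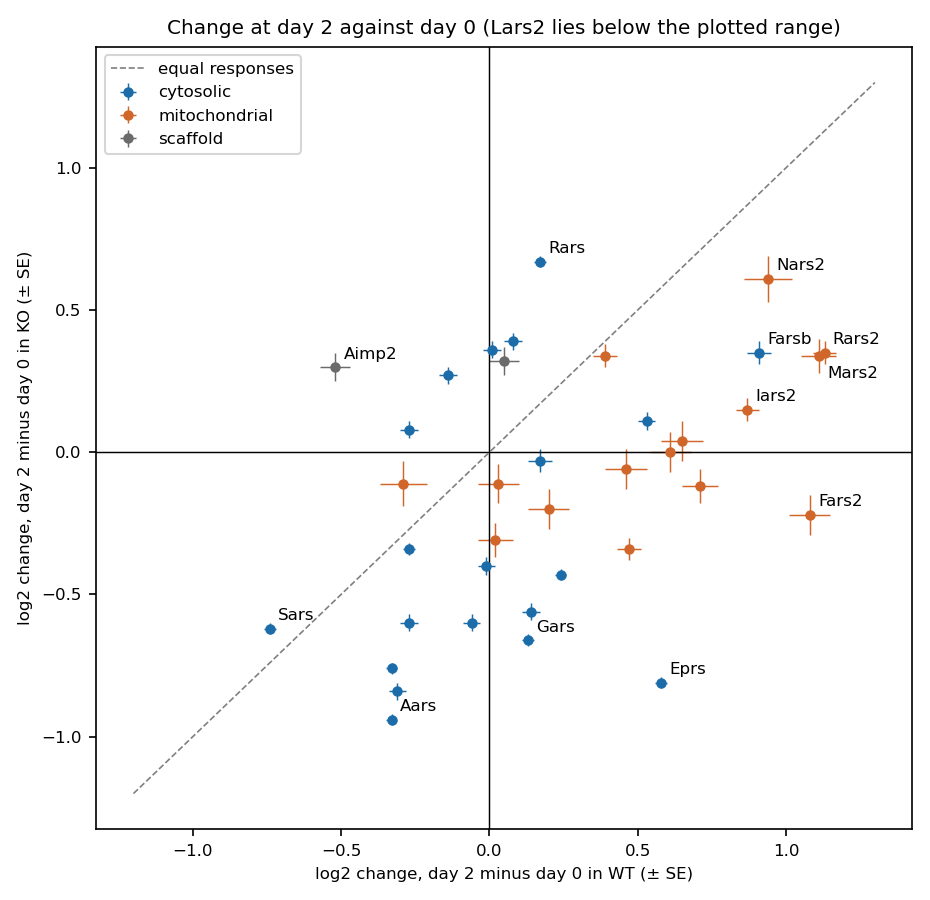
Log2 change at day 2 minus day 0 in KO (vertical) against that in WT (horizontal) for 37 members, with bars for the standard errors and a dashed line where the responses are equal. Lars2, at -3.36 in KO and 0.04 in WT, lies below the plotted range, and the mitochondrial enzymes lie mostly right of 0, with Rars2 at 1.13 and Mars2 at 1.11 in WT.

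The cytosolic enzymes outside the complex included the largest falls at both days. All 12 fell in KO against WT at day 2 (median -1.04) and 11 of 12 at day 0 (median -0.72). The shares of all genes that fell were 40.6% at day 2 and 44.2% at day 0. Gars had 89.3, 87.9 and 91.6 FPKM in KO and 356, 352 and 362 in WT at day 2, and 142, 145 and 140.4 in KO and 322, 328 and 332 in WT at day 0. Gars encodes the glycyl enzyme of both compartments (chr6:55038001-55079504, GRCm38.p6), and every KO library lay below every WT library of its day. Its log2 change in KO against WT was -1.98 ± 0.02 (adjusted p = 4.11e-15) at day 2, the largest fall of any member, and -1.19 ± 0.02 (adjusted p = 3.11e-13) at day 0. Over time Gars changed by -0.66 ± 0.02 (adjusted p = 8.25e-11) in KO and 0.13 ± 0.02 (adjusted p = 0.000209) in WT, and the rise in WT did not pass under quantile normalization (0.04, adjusted p = 0.116). The interaction was -0.79 ± 0.03 (adjusted p = 4.3e-10).

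Cytosolic phenylalanyl-tRNA synthetase is built of an alpha subunit, encoded by Farsa (chr8:84856969-84869257), and a beta subunit, encoded by Farsb (chr1:78417958-78488897). Farsa had 48.8, 50.5 and 48.5 FPKM in KO and 149, 144 and 149 in WT at day 2, and 40.2, 41.4 and 40.2 in KO and 168, 159 and 160.5 in WT at day 0. The KO libraries of Farsa were low at both days, with log2 changes of -1.56 ± 0.03 (adjusted p = 1.71e-13) at day 2 and -1.97 ± 0.03 (adjusted p = 4.03e-14) at day 0. Farsb had 36.4, 38 and 40.9 FPKM in KO and 96.7, 93.2 and 97.3 in WT at day 2, and 29.4, 29.3 and 31.2 in KO and 48.5, 51.9 and 50.7 in WT at day 0. Farsb was lower in KO at both days too, with log2 changes of -1.30 at day 2 and -0.73 at day 0. Over time Farsb rose by 0.35 in KO and by 0.91 ± 0.04 (adjusted p = 1.17e-09) in WT in log2. Farsa rose by 0.27 in KO and had a log2 change of -0.14 ± 0.03 (adjusted p = 5e-04) in WT, a fall that did not pass under median-of-ratios scaling (-0.04, adjusted p = 0.183). Their interactions had opposite signs, -0.56 for Farsb and 0.41 for Farsa. The gene of Farsb overlaps Sgpp2 by 2332 bases in RefSeq, and with the strand setting of the counting not given, reads of overlapping genes cannot be told apart.

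Yars had 61.5, 58.6 and 61.1 FPKM in KO and 152, 153 and 153 in WT at day 2, and 82.9, 81.2 and 80.2 in KO and 132, 128 and 128 in WT at day 0. Yars, the tyrosyl enzyme, was lower in KO with log2 changes of -1.32 ± 0.02 (adjusted p = 2.2e-13) at day 2 and -0.66 ± 0.02 (adjusted p = 1.29e-10) at day 0, with no overlap at either day. Wars had 22.4, 23.4 and 22.6 FPKM in KO and 56.6, 56.3 and 54.3 in WT at day 2, and 36, 35.4 and 34.2 in KO and 59.6, 56.3 and 58.6 in WT at day 0. The tryptophanyl enzyme Wars was likewise lower in KO, at -1.25 in log2 at day 2 and -0.71 at day 0. Its response in WT did not pass (log2 change -0.06 ± 0.03, adjusted p = 0.0934), though it passed without WT day 0 replicate 2 (-0.08, adjusted p = 0.0389) and under quantile normalization (-0.09, adjusted p = 0.0188). Vars had 64.2, 61.6 and 57.5 FPKM in KO and 122, 128 and 123 in WT at day 2, and 64, 63 and 60 in KO and 114, 106 and 112 in WT at day 0. Vars, the valyl enzyme, was lower in every KO library than in any WT library, with log2 changes of -1.02 at day 2 and -0.82 at day 0.

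Aars had 164, 160.4 and 166 FPKM in KO and 253, 251 and 252 in WT at day 2, and 312, 321 and 314 in KO and 323, 314 and 316 in WT at day 0. The KO libraries of Aars, the alanyl enzyme, lay below WT at day 2 (log2 change -0.62 ± 0.02, adjusted p = 4.61e-11) and overlapped with WT at day 0 (log2 change -0.01 ± 0.02, adjusted p = 0.695), where TPM scaling and quantile normalization turned the value to 0.10 and 0.23. Over time Aars fell in both genotypes, with log2 changes of -0.94 ± 0.02 (adjusted p = 2.12e-12) in KO and -0.33 ± 0.02 (adjusted p = 1.73e-08) in WT. Its gene overlaps Ddx19b by 3974 bases. Cars had 62.2, 66.6 and 61.8 FPKM in KO and 128, 125 and 131 in WT at day 2, and 115, 114 and 116 in KO and 162, 156 and 159 in WT at day 0. Nars had 72.1, 72.3 and 73.6 FPKM in KO and 154, 153 and 152 in WT at day 2, and 123, 126 and 123 in KO and 195, 191 and 194 in WT at day 0. Cars and Nars, the cysteinyl and asparaginyl enzymes, also fell over time in both genotypes, with log2 changes of -0.84 and -0.76 in KO and -0.31 and -0.33 in WT. Both were lower in KO at day 0 already, at -0.47 and -0.64.

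Sars had 125, 125 and 126 FPKM in KO and 178, 176 and 167 in WT at day 2, and 189, 196 and 194 in KO and 294, 289 and 292 in WT at day 0. Sars, the seryl enzyme, fell over time with log2 changes of -0.62 ± 0.02 (adjusted p = 4.4e-10) in KO and -0.74 ± 0.02 (adjusted p = 3.69e-11) in WT, the largest fall of any member in WT. Its interaction of 0.13 ± 0.03 (adjusted p = 0.00581) did not pass under TPM scaling (0.07) or median-of-ratios scaling (0.09). Tars had 55.8, 55 and 55.9 FPKM in KO and 107, 102 and 107 in WT at day 2, and 69.9, 71.6 and 70.8 in KO and 130.4, 125 and 127 in WT at day 0. The threonyl enzyme Tars fell over time, at -0.34 in KO and -0.27 in WT. Its interaction did not pass (log2 change -0.07 ± 0.03, adjusted p = 0.0698), though it passed without WT day 0 replicate 1 or WT day 2 replicate 2 (-0.09 each) and under TPM scaling (-0.13) and median-of-ratios scaling (-0.11). Hars had 28.6, 27.6 and 26.8 FPKM in KO and 40.2, 39.4 and 38.8 in WT at day 2, and 26.9, 25.2 and 26.1 in KO and 48.3, 48.3 and 46.6 in WT at day 0. Hars, the histidyl enzyme, was lower in KO at both days, with log2 changes of -0.50 at day 2 and -0.85 at day 0. Its KO response of 0.08 ± 0.03 (adjusted p = 0.0383) came with overlapping libraries and did not pass without KO day 2 replicate 1 or 2, KO day 0 replicate 2 or 3 or WT day 2 replicate 2 (adjusted p = 0.0501 to 0.148).

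The multi-synthetase complex gathers 8 enzymes and 3 scaffold proteins. Of its 11 genes 9 fell and 1 rose in KO against WT at day 2 (median -0.76), and 10 fell and 1 rose at day 0 (median -0.48). At day 2 against day 0, 7 rose and 4 fell in KO (median 0.30), and 6 rose and 2 fell in WT (median 0.08). The interaction was positive in 5 and negative in 6, where 40.8% of all genes were positive and 33% negative. Shares of all genes tested were 40.6% lower and 40.8% higher in KO at day 2, and 44.2% and 38.3% at day 0. They were 33.9% higher and 38.8% lower in the KO response, and 34.2% and 46.5% in the WT response.

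Eprs had 94.7, 95.2 and 91.2 FPKM in KO and 234, 235 and 239 in WT at day 2, and 169, 164 and 163 in KO and 158, 157 and 159 in WT at day 0. Eprs, a fused enzyme that charges both glutamate and proline tRNAs (chr1:185361417-185428360), was high only in the WT day 2 libraries and low only in the KO day 2 libraries. Over time it fell in KO, with a log2 change of -0.81 ± 0.02 (adjusted p = 1.49e-11), and rose in WT, with 0.58 ± 0.02 (adjusted p = 1.62e-10), and the interaction was -1.39 ± 0.03 (adjusted p = 3.9e-12). In KO against WT its log2 change was -1.32 ± 0.02 (adjusted p = 1.11e-13) at day 2. At day 0 the KO libraries lay slightly above WT (log2 change 0.07 ± 0.02, adjusted p = 0.0159), a rise that did not pass without KO day 0 replicate 1 (0.05, adjusted p = 0.0712).

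Rars had 130.1, 131 and 129.8 FPKM in KO and 217, 217 and 215 in WT at day 2, and 79.8, 82.3 and 82.8 in KO and 188, 193 and 192 in WT at day 0. Rars, the arginyl enzyme (chr11:35808381-35834528), had the largest rise of any member in KO on the log2(FPKM + 1) scale, though by the ratio of group means Nars2 rose 1.71-fold and Rars 1.6-fold. Its log2 change over time was 0.67 ± 0.02 (adjusted p = 3.07e-11) in KO and 0.17 ± 0.02 (adjusted p = 4.84e-06) in WT, with an interaction of 0.49 ± 0.03 (adjusted p = 1.25e-08). The KO libraries lay below WT at both days, with log2 changes of -0.73 at day 2 and -1.22 at day 0. Kars had 121, 126 and 128 FPKM in KO and 145, 142 and 139 in WT at day 2, and 95.1, 94.3 and 96.5 in KO and 137, 132 and 133 in WT at day 0. Kars, the lysyl enzyme of both compartments, rose by 0.39 ± 0.03 (adjusted p = 4.63e-08) in KO and by 0.08 ± 0.03 (adjusted p = 0.0104) in WT, where the change did not pass under quantile normalization (0.01, adjusted p = 0.626). Its fall in KO against WT at day 2 (log2 change -0.18 ± 0.03, adjusted p = 2.78e-05) also did not pass under quantile normalization (-0.02, adjusted p = 0.522). Qars, shown above, rose by 0.36 ± 0.03 (adjusted p = 2.24e-07) in KO, and its log2 change of 0.01 in WT did not pass, though it passed under median-of-ratios scaling (0.11).

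Dars had 52, 51.6 and 54.2 FPKM in KO and 90.6, 89.4 and 88.4 in WT at day 2, and 49.4, 47.7 and 49 in KO and 59.3, 63.2 and 62.3 in WT at day 0. Dars, the aspartyl enzyme, was higher at day 2 in both genotypes, by 0.11 in KO and 0.53 in WT in log2. Iars had 66.1, 70.9 and 68.8 FPKM in KO and 132, 134 and 129.5 in WT at day 2, and 103, 104 and 106 in KO and 160.2, 157 and 158 in WT at day 0. Mars had 35, 33.7 and 34.1 FPKM in KO and 65.1, 66.1 and 63.7 in WT at day 2, and 51.5, 52.2 and 49.8 in KO and 57.2, 58.5 and 60.5 in WT at day 0. The isoleucyl and methionyl enzymes Iars and Mars were lowest in the KO day 2 libraries, with log2 changes over time of -0.60 and -0.56 in KO, against -0.27 and 0.14 in WT. Lars had 33.3, 36.3 and 35.5 FPKM in KO and 64.7, 64.1 and 65.3 in WT at day 2, and 47, 45.6 and 47 in KO and 64.5, 65.4 and 66 in WT at day 0. Lars, the leucyl enzyme, fell over time in KO (log2 change -0.40 ± 0.03, adjusted p = 1.9e-07), and its WT change (log2 change -0.01 ± 0.03, adjusted p = 0.713) turned to 0.09 under median-of-ratios scaling (adjusted p = 0.0244). The gene of Mars overlaps that of Ddit3, an amino acid response gene, by 71 bases.

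Both scaffold genes among the members had positive interactions. Aimp2 had 11.1, 11.1 and 12.2 FPKM in KO and 19.3, 20.6 and 20.1 in WT at day 2, and 9.53, 8.63 and 9.13 in KO and 28.4, 30.4 and 28.8 in WT at day 0. Aimp2 (chr5:143902704-143909839) was low in KO at both days, with log2 changes of -0.75 ± 0.05 (adjusted p = 2.45e-08) at day 2 and -1.58 ± 0.05 (adjusted p = 2.77e-11) at day 0. Over time it rose in KO (log2 change 0.30 ± 0.05, adjusted p = 0.000136) and fell in WT (log2 change -0.52 ± 0.05, adjusted p = 8.04e-07), and its interaction of 0.83 ± 0.07 (adjusted p = 4.29e-07) was the highest of any member. Aimp1 had 77.4, 67.5 and 74.2 FPKM in KO and 80, 79.1 and 72.7 in WT at day 2, and 58, 58.4 and 58.9 in KO and 71.6, 75.2 and 76.7 in WT at day 0. The Aimp1 libraries of the genotypes overlapped at day 2 (log2 change -0.08 ± 0.05, adjusted p = 0.151), where the fall passed without WT day 2 replicate 3 or KO day 2 replicate 1 (-0.12 each). At day 0 Aimp1 was lower in KO (log2 change -0.34 ± 0.05, adjusted p = 4.07e-05). Over time it rose in KO (log2 change 0.32 ± 0.05, adjusted p = 0.000117), and its interaction was 0.26. Eef1e1, the third scaffold, averaged 19.1 FPKM in KO and 55.7 FPKM in WT at day 2, and 14.5 FPKM in KO and 36.2 FPKM in WT at day 0. Its log2 changes in KO against WT were -1.50 ± 0.07 (adjusted p = 1.24e-09) at day 2 and -1.26 ± 0.07 (adjusted p = 7.25e-09) at day 0. Unlike those of Aimp1 and Aimp2, the interaction of Eef1e1 was negative and past the threshold.

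Among the mitochondrial enzymes, Mars2, Rars2 and Fars2 had the largest rises in WT. Mars2 had 1.65, 1.56 and 1.62 FPKM in KO and 5.56, 5.43 and 5.31 in WT at day 2, and 1.12, 1.09 and 1.01 in KO and 2.07, 1.94 and 1.94 in WT at day 0. Mars2, the methionyl enzyme (chr1:55237177-55240058), had its highest levels in the 3 WT day 2 libraries, with log2 changes over time of 0.34 ± 0.06 (adjusted p = 0.000216) in KO and 1.11 ± 0.06 (adjusted p = 2.57e-09) in WT. Rars2 had 29.4, 31.3 and 29.3 FPKM in KO and 58.9, 62.5 and 58.8 in WT at day 2, and 23.5, 22.9 and 23.4 in KO and 27, 25.8 and 27.8 in WT at day 0. The arginyl enzyme Rars2 rose by 0.35 ± 0.04 (adjusted p = 4.09e-06) in KO and 1.13 ± 0.04 (adjusted p = 3.79e-11) in WT. Its KO libraries were below WT, with log2 changes of -0.98 at day 2 and -0.20 at day 0.

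Fars2 had 5.72, 5.57 and 5.90 FPKM in KO and 12, 12.8 and 10.5 in WT at day 2, and 7.22, 6.79 and 6.58 in KO and 4.88, 5.47 and 4.79 in WT at day 0. Fars2, the phenylalanyl enzyme, fell in KO (log2 change -0.22 ± 0.07, adjusted p = 0.0126) and rose in WT (log2 change 1.08 ± 0.07, adjusted p = 2.34e-08), and the fall did not pass under median-of-ratios scaling or quantile normalization (-0.17 and -0.11). Its KO libraries lay below WT at day 2 (log2 change -0.92 ± 0.07, adjusted p = 1.05e-07) and above WT at day 0 (log2 change 0.38 ± 0.07, adjusted p = 3e-04), and its interaction was -1.30 ± 0.10 (adjusted p = 1.73e-07). Hars2 had 25.3, 24.7 and 26.1 FPKM in KO and 30.1, 30.1 and 30.2 in WT at day 2, and 32.6, 31.9 and 32.6 in KO and 21.2, 23.1 and 20.4 in WT at day 0. Hars2 showed the same exchange of order, with log2 changes of -0.24 ± 0.04 (adjusted p = 0.000113) at day 2 and 0.57 ± 0.04 (adjusted p = 5.14e-08) at day 0. Hars and Hars2 are neighbours whose annotations overlap by 4 bases. The gene of Fars2 overlaps the noncoding gene Gm40912 by 20270 bases in RefSeq. Cars2 had 16, 14.6 and 16.6 FPKM in KO and 17.2, 19.4 and 17.8 in WT at day 2, and 17.9, 16.2 and 15.4 in KO and 13.3, 13.2 and 12 in WT at day 0. Cars2, the cysteinyl enzyme, was also lower in KO at day 2 (log2 change -0.19 ± 0.07, adjusted p = 0.0202) and higher at day 0 (log2 change 0.34 ± 0.07, adjusted p = 0.000601). The fall at day 2 did not pass without KO day 2 replicate 2 or WT day 2 replicate 2 (-0.14 each) or under TPM scaling (-0.15).

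Vars2 had 12.7, 12.6 and 13.7 FPKM in KO and 25.8, 22.9 and 23.8 in WT at day 2, and 15.3, 14 and 13.4 in KO and 15.4, 13.8 and 14 in WT at day 0. The valyl enzyme Vars2 did not pass over time in KO (log2 change -0.12 ± 0.06, adjusted p = 0.0845), where it passed without KO day 0 replicate 3 and under TPM scaling (-0.16 each), and rose in WT (log2 change 0.71 ± 0.06, adjusted p = 3.19e-07). Between the genotypes it fell in KO at day 2 (log2 change -0.85 ± 0.06, adjusted p = 5.81e-08), and its libraries overlapped at day 0 (log2 change -0.01 ± 0.06, adjusted p = 0.835). Ears2 had 3.44, 3.22 and 3.36 FPKM in KO and 5.60, 5.41 and 6.36 in WT at day 2, and 3.12, 3.38 and 3.58 in KO and 3.61, 3.13 and 3.60 in WT at day 0. Aars2 had 4.56, 4.33 and 4.97 FPKM in KO and 9.88, 10.9 and 11.3 in WT at day 2, and 4.76, 4.49 and 4.17 in KO and 6.79, 6.18 and 6.41 in WT at day 0. Ears2 and Aars2, the glutamyl and alanyl enzymes, had log2 changes over time of 0.00 and 0.04 in KO that did not pass, though Aars2 passed under quantile normalization (0.19), and rose by 0.61 and 0.65 in WT. Iars2 had 21.4, 20.8 and 21.6 FPKM in KO and 47.2, 47 and 48.4 in WT at day 2, and 17.9, 19.7 and 19.9 in KO and 25.3, 25.7 and 25.8 in WT at day 0. Iars2, the isoleucyl enzyme, rose by 0.15 in KO and 0.87 in WT.

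Nars2 and Tars2 rose in both genotypes, as did others, among them Iars2, Mars2 and Rars2. Nars2 had 4.85, 4.60 and 5.35 FPKM in KO and 7.05, 7.37 and 8.09 in WT at day 2, and 3.06, 2.81 and 2.80 in KO and 3.35, 3.94 and 3.02 in WT at day 0. Nars2, the asparaginyl enzyme, rose by 0.61 ± 0.08 (adjusted p = 3.4e-05) in KO and 0.94 ± 0.08 (adjusted p = 4.27e-07) in WT. Its interaction of -0.33 ± 0.12 (adjusted p = 0.0215) did not pass without WT day 0 replicate 3, WT day 2 replicate 3 or KO day 2 replicate 2 (-0.27 to -0.29). Its difference at day 0, -0.19, did not pass, though it passed without WT day 0 replicate 3 (-0.25, adjusted p = 0.0163), with a pseudocount of 0.1 (-0.24), under quantile normalization (-0.21) and with no variance trend (-0.19). Tars2 had 20.9, 23.3 and 22.1 FPKM in KO and 28.8, 27.9 and 27.8 in WT at day 2, and 17.6, 17.2 and 16.8 in KO and 20.6, 21.4 and 21.9 in WT at day 0. Tars2, the threonyl enzyme, rose by 0.34 in KO and 0.39 in WT, and its interaction did not pass (log2 change -0.05 ± 0.06, adjusted p = 0.46).

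Yars2, Sars2 and Pars2 were lower in KO at both days, as were others, among them Aars2, Iars2, Mars2, Rars2 and Tars2. Yars2 had 9.85, 8.56 and 9.90 FPKM in KO and 28.6, 25.1 and 28.4 in WT at day 2, and 11.4, 10.1 and 11.5 in KO and 22.9, 24.5 and 23.3 in WT at day 0. Yars2, the tyrosyl enzyme, had log2 changes in KO against WT of -1.44 ± 0.07 (adjusted p = 1.22e-09) at day 2 and -1.04 ± 0.07 (adjusted p = 3e-08) at day 0. The value at day 2 was the largest fall of a mitochondrial enzyme on the log2(FPKM + 1) scale, though by the ratio of group means Mars2 was 3.37-fold and Yars2 2.9-fold lower in KO. Its changes over time were -0.20 in KO and 0.20 in WT. In KO this fall did not pass without KO day 0 replicate 1 or 3 or KO day 2 replicate 2 (-0.18, -0.17 and -0.14), or under median-of-ratios scaling or quantile normalization (-0.15 and -0.14). In WT the rise did not pass without WT day 0 replicate 1 or WT day 2 replicate 1 or 3 (0.19, 0.17 and 0.18). Sars2 had 4.31, 3.97 and 4.23 FPKM in KO and 8.46, 8.58 and 8.80 in WT at day 2, and 5.49, 5.96 and 4.88 in KO and 8.22, 8.22 and 8.98 in WT at day 0. Sars2, the seryl enzyme, fell over time in KO (-0.31), and its WT change of 0.02 did not pass, though it passed under quantile normalization (0.26). Pars2 had 3.16, 2.96 and 2.72 FPKM in KO and 5.47, 4.47 and 4.45 in WT at day 2, and 3.54, 3.03 and 3.23 in KO and 6.18, 5.86 and 6.13 in WT at day 0. Pars2, the prolyl enzyme and the least deeply covered member, fell over time in WT (log2 change -0.29 ± 0.08, adjusted p = 0.00475), which did not pass under quantile normalization (-0.01). Its interaction of 0.18 did not pass, but passed without WT day 2 replicate 1 (0.26).

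Lars2, the mitochondrial leucyl enzyme (chr9:123366927-123462675), had the widest spread of any member within a group. Lars2 had 11.1, 11.4 and 8.83 FPKM in KO and 15.2, 16.8 and 16.6 in WT at day 2, and 122, 107 and 118 in KO and 5.45, 6.24 and 99.5 in WT at day 0. The 3 KO day 0 libraries and WT day 0 replicate 3 were high, and the other 8 libraries were low. The mitochondrial ribosomal RNA mt-Rnr1 had 13.5, 17.1 and 16.4 FPKM in KO and 17.3, 15.6 and 19.9 in WT at day 2, and 395, 379 and 396 in KO and 7.01, 5.87 and 264 in WT at day 0. The other, mt-Rnr2, had 14.3, 19.2 and 17.9 FPKM in KO and 8.56, 9.80 and 8.15 in WT at day 2, and 370.1, 367 and 374 in KO and 5.59, 6.13 and 277 in WT at day 0. Both ribosomal RNAs were thus high in the same 4 libraries as Lars2, and their part in the Lars2 values was not tested. In KO against WT the log2 changes of Lars2 were -0.60 ± 0.78 (adjusted p = 0.492) at day 2 and 2.80 ± 0.78 (adjusted p = 0.0057) at day 0. Over time they were -3.36 ± 0.78 (adjusted p = 0.00218) in KO and 0.04 ± 0.78 (adjusted p = 0.967) in WT. Without WT day 0 replicate 3 the fall at day 2 passed, at -0.60 (adjusted p = 7.65e-05), the rise at day 0 was 4.09 (adjusted p = 2.6e-11), the WT response was 1.33 (adjusted p = 2.38e-07) and the interaction was -4.69 (adjusted p = 1.5e-10), against -3.39 ± 1.10 (adjusted p = 0.0156) with it. In RefSeq the noncoding gene Gm46137 overlaps Lars2 by 8819 bases.

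**Figure D5:**
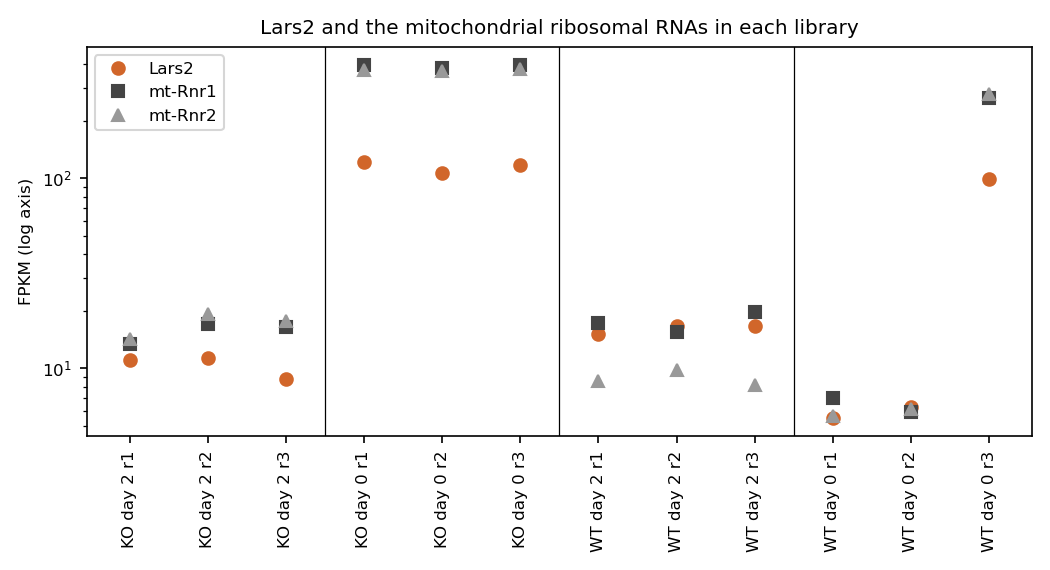
FPKM of Lars2, mt-Rnr1 and mt-Rnr2 in each of the 12 libraries on a log axis. All 3 genes were high in the KO day 0 libraries and in WT day 0 replicate 3, where Lars2 was at 99.5, mt-Rnr1 at 264 and mt-Rnr2 at 277.

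For 14 amino acids both a cytosolic and a mitochondrial gene share a name root, and the pairs were compared by their log2 changes. In KO over time the mitochondrial gene had the higher log2 change in 10 of 14 pairs (median difference 0.40). The pairs called in opposite directions in KO were those for isoleucine, methionine, asparagine and threonine, with the mitochondrial gene rising, and histidine, with Hars rising. In WT over time the mitochondrial gene had the higher log2 change in 13 of 14 pairs (median difference 0.75). Yars and Yars2 were the exception (0.24 and 0.20). The 13 include the leucine and tryptophan pairs, in which neither gene passed the test (differences 0.05 and 0.09). In 6 pairs in WT the cytosolic gene fell and the mitochondrial gene rose: Aars with Aars2, Cars with Cars2, Hars with Hars2, Iars with Iars2, Nars with Nars2 and Tars with Tars2. For the asparaginyl pair in WT the changes were -0.33 for Nars and 0.94 for Nars2. Of all genes tested 33.9% rose and 38.8% fell in KO, and 34.2% rose and 46.5% fell in WT.

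Between the genotypes the pairs were evenly divided at day 2. In KO against WT the mitochondrial log2 change was the higher in 7 of 14 pairs at day 2 (median difference 0.03), and only Wars and Wars2 were called in opposite directions, at -1.25 and 0.18. At day 0 it was the higher in 10 of 14 (median difference 0.50), with the pairs for cysteine, histidine, leucine and tryptophan called in opposite directions, each with the mitochondrial gene higher in KO. The leucine pair rests on Lars2, whose WT day 0 libraries ranged from 5.45 to 99.5 FPKM. The widest of these gaps apart from leucine was histidine, where Hars was -0.85 and Hars2 was 0.57. The interaction had opposite called signs in the pairs for histidine, arginine and serine, at 0.49 for Rars and -0.78 for Rars2. Of all genes tested 40.6% fell and 40.8% rose in KO against WT at day 2, and 44.2% and 38.3% at day 0. Their interaction was negative in 33% and positive in 40.8%.

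Synthetases also divide by the fold of their catalytic domain into class I and class II, and Eprs holds a domain of each. In KO against WT at day 2, 15 of 18 class I genes fell and 2 rose (median -0.92), and 18 of 18 class II genes fell (median -0.83). At day 0, 13 class I genes fell and 3 rose (median -0.43), and 14 class II genes fell and 2 rose (median -0.58). Over time in KO, 5 class I genes rose and 8 fell, and 8 class II genes rose and 8 fell. In WT, 11 class I genes rose and 2 fell, and 10 class II genes rose and 7 fell. The interaction was negative in 15 and positive in 2 of class I, and negative in 11 and positive in 4 of class II. Shares of all genes tested were 40.6% lower and 40.8% higher in KO at day 2, and 44.2% and 38.3% at day 0. They were 33.9% higher and 38.8% lower in the KO response, and 34.2% and 46.5% in the WT response. The interaction of all genes was negative in 33% and positive in 40.8%. The difference between the classes was not tested.

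Other genes of tRNA handling and translation in mitochondria were described by a list of 12. Over time 5 rose and 2 fell in KO (median 0.01), 12 of 12 rose in WT (median 0.70), and the interaction was negative in 12 of 12 (median -0.60). At day 2 in KO against WT, 10 of the 12 fell and 1 rose (median -0.83), and at day 0, 6 fell and 4 rose (median -0.10). Among all genes tested 40.6% fell and 40.8% rose at day 2, and 44.2% fell and 38.3% rose at day 0. Over time 33.9% of them rose and 38.8% fell in KO, and 34.2% rose and 46.5% fell in WT. Their interaction was negative in 33% and positive in 40.8%. Gfm1, the mitochondrial elongation factor G, averaged 19.6 FPKM in KO and 78.5 FPKM in WT at day 2 (log2 change -1.95 ± 0.03, adjusted p = 1.43e-13). Tufm, the mitochondrial elongation factor Tu, averaged 93.3 FPKM in KO and 188 FPKM in WT (log2 change -1.01 ± 0.04, adjusted p = 7.13e-10). Elac2, which trims tRNA 3′ ends, averaged 20.8 FPKM in KO and 44.6 FPKM in WT (log2 change -1.06 ± 0.04, adjusted p = 3.18e-10). Qrsl1, part of the enzyme that makes mitochondrial glutaminyl-tRNA, averaged 2.59 FPKM in KO and 11.2 FPKM in WT (log2 change -1.76 ± 0.08, adjusted p = 4.75e-10).

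The 15 companions of the cytosolic enzymes moved in both directions. At day 2 in KO against WT 10 fell and 3 rose (median -0.28), and 9 fell and 3 rose at day 0 (median -0.42). Over time 7 rose and 5 fell in KO, 7 rose and 7 fell in WT, and the interaction was negative in 8 and positive in 4. Among all genes tested 40.6% fell and 40.8% rose in KO against WT at day 2, and 44.2% fell and 38.3% rose at day 0. Over time 33.9% of them rose and 38.8% fell in KO, and 34.2% rose and 46.5% fell in WT. Their interaction was negative in 33% and positive in 40.8%. Xpot, which exports tRNA from the nucleus, averaged 42.2 FPKM in KO and 83.7 FPKM in WT at day 2 (log2 change -0.97 ± 0.03, adjusted p = 1.54e-11). Trnt1, which adds the CCA end to tRNA, averaged 27.5 FPKM in KO and 49.4 FPKM in WT (log2 change -0.82 ± 0.04, adjusted p = 1.29e-09). Eef1b2, a subunit of the factor that recycles the carrier of charged tRNA, was the other way, at 827 FPKM in KO and 597 FPKM in WT (log2 change 0.47 ± 0.02, adjusted p = 1.41e-09).

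The 28 genes of the amino acid response, the pathway that reaches many cytosolic synthetase genes, mostly fell in KO against WT at day 2 but were divided at day 0. Of the 28, 22 fell and 3 rose in KO against WT at day 2 (median -1.03), and 11 fell and 14 rose at day 0 (median 0.05). Over time 6 rose and 22 fell in KO, 18 rose and 8 fell in WT, and the interaction was negative in 26 of 28 (median -0.86). Among all genes tested 40.6% fell and 40.8% rose in KO against WT at day 2, and 44.2% fell and 38.3% rose at day 0. Over time 33.9% of them rose and 38.8% fell in KO, and 34.2% rose and 46.5% fell in WT. Their interaction was negative in 33% and positive in 40.8%. Asns, asparagine synthetase, averaged 100.0 FPKM in KO and 398 FPKM in WT at day 2 (log2 change -1.98 ± 0.02, adjusted p = 3.29e-15). Psat1, an enzyme of serine synthesis, averaged 116 FPKM in KO and 475 FPKM in WT (log2 change -2.03 ± 0.02, adjusted p = 7.76e-15). Shmt2, which makes glycine from serine in mitochondria, averaged 54.2 FPKM in KO and 174 FPKM in WT (log2 change -1.66 ± 0.03, adjusted p = 8.96e-14), and the folate enzyme Mthfd2 averaged 225 FPKM in KO and 492.5 FPKM in WT (log2 change -1.13 ± 0.02, adjusted p = 4.61e-14). These 4 also fell at day 0, with log2 changes of -1.26, -1.63, -1.53 and -0.92. The factors Atf4, Atf5, Ddit3 and Atf3 of the list are named here after their values were seen. Atf4 averaged 138 FPKM in KO and 283 FPKM in WT at day 2 (log2 change -1.03 ± 0.02, adjusted p = 1.74e-12). At day 0 Atf4 averaged 203 FPKM in KO and 205 FPKM in WT (log2 change -0.02 ± 0.02, adjusted p = 0.504). Atf5 averaged 218 FPKM in KO and 343 FPKM in WT at day 2, and 466.5 and 235 FPKM at day 0. Ddit3 averaged 110 FPKM in KO and 227 FPKM in WT at day 2, and 188 and 114 FPKM at day 0. Atf3 averaged 0.755 FPKM in KO and 2.68 FPKM in WT at day 2, and 2.31 and 2.76 FPKM at day 0. The part of the amino acid response in the synthetase changes was not tested.

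Markers of cell state also differed between the groups. The 6 adipocyte markers summed to 329 to 343 FPKM in KO and 8060 to 8240 FPKM in WT at day 2, and to 190 to 201 FPKM in KO and 56.1 to 60.4 FPKM in WT at day 0, with Adipoq at 0 in some libraries. Most of the day 0 sums came from Lpl, at 190.4 FPKM in KO and 55.86 FPKM in WT. All 6 fell in KO against WT at day 2 (median log2 change -5.54). At day 0, 1 of the 6 rose and 5 did not pass the test. Among all genes tested 40.6% fell and 40.8% rose at day 2, and 44.2% fell and 38.3% rose at day 0. The 6 preadipocyte markers summed to 4410 to 4600 FPKM in KO and 716 to 730 FPKM in WT at day 2, and to 18900 to 19500 FPKM in KO and 5540 to 5740 FPKM in WT at day 0. Most of these sums came from the collagen genes Col1a1, at 2024 FPKM in KO and 161.3 FPKM in WT at day 2, and Col3a1, at 1711 FPKM in KO and 421.7 FPKM in WT. In KO against WT 5 of the 6 preadipocyte markers rose and 0 fell at day 2, where Cd34 did not pass, and 4 rose and 1 fell at day 0. The fall was that of Cd34, at 0.28 FPKM in KO and 3.94 FPKM in WT, and Thy1 did not pass. The 8 cell division genes summed to 174 to 180 FPKM in KO and 433 to 444 FPKM in WT at day 2, and to 39.5 to 41.8 FPKM in KO and 676 to 682 FPKM in WT at day 0, and all 8 fell in KO at both days (medians -1.94 and -4.30). The interaction was negative in 6 of 6 adipocyte markers, positive in 5 and negative in 1 of the preadipocyte markers and positive in 8 of 8 cell division genes. Among all genes tested it was negative in 33% and positive in 40.8%. The part of cell state and of cell division in the synthetase changes was not tested. Markers of macrophages summed to at most 7.31 FPKM, of endothelium to at most 0.294, of epithelium to at most 0.125 and of muscle to at most 1.35 in any library, with Tie1, Epcam, Myod1 and Myog at 0 in every library.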

How the data were processed

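RNA-seq libraries of 3T3-L1 cells, 3 in each of 4 groups, were analysed. The 24 MeRIP samples of the series were not analysed here. The deposited table gives FPKM values computed by the authors. Per the submitters' processing notes, the build was mm10 and the tools included TopHat2 2.0.12, with Bowtie2 2.2.3, and HTSeq 0.6.1, their roles not being stated. What annotation, gene lengths and strand setting were used is not given in those sources. The 12 columns were matched to samples by genotype, day and number in their names.

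Values of each gene were whole multiples of a step (tolerance 0.001 of a read) in 100% of the 30916 genes above 0, from which reads were recovered. Genes with a single distinct value above 0 meet this by construction, so the share does not check their reads. Genes averaging 1 FPKM or more were analysed as log2(FPKM + 1), so a fold change understates that of low genes. For 5 comparisons a mean per group was fitted in limma 3.58.1 (R 4.3.3). The variance was allowed a trend, and 8 residual degrees of freedom remained. P-values were 2-sided and adjusted over all 12961 genes by the Benjamini-Hochberg method, with a threshold of 0.05. The fit was also run on simulated data in which few genes changed. Most genes were called here, so that run does not show how the fit performs on these data.

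The members and lists were chosen with earlier results of these data known. The rule for named genes was the 5 largest rises and falls among members past the threshold in each comparison, Aimp1, Aimp2, Gars, Kars, pairs called in opposite directions, up to 4 genes of each other list with the smallest adjusted p, and Zfp217. Vars, Ears2, Pars2, Dars and other members outside it are given for completeness. The values of 1 member are not reported here, though it stays in the counts, medians and sums. Alternatives were a pseudocount of 0.1, no filter or a mean of 5 FPKM, median-of-ratios, TPM and quantile scaling, a constant prior variance, a replicate block, only the libraries compared, a 1.5-fold minimum, voom on recovered reads and each library left out. Promoter sequences, gene positions and overlaps are from RefSeq (GRCm38.p6, the assembly of mm10).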

Additional observations from a re-analysis of the deposited data

Results flagged for a closer look

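The change at day 2 against day 0 differed between KO and WT cells, by the interaction term of the limma fit, in most of the synthetase genes. The KO response lay below the WT response in 27 members and above it in 8, against 33% and 40.8% of all genes. The lowest differences in log2 were -3.39 for Lars2, -1.39 for Eprs, -1.30 for Fars2, -0.83 for Vars2 and -0.81 for Hars2. The highest were 0.83 for Aimp2, 0.49 for Rars, 0.41 for Farsa and 0.35 each for Qars and Hars. Of the genes named for their role, Gars was at -0.79, Kars at 0.31 and Aimp1 at 0.26. The value of Lars2 includes WT day 0 replicate 3, the library in which Lars2 and both mitochondrial ribosomal RNAs stood far above the other WT day 0 libraries.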

How the results depend on the processing

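The 1.5-fold minimum was left out of the member-by-member values, and a member counted only in settings that tested it. Over 195 pairs of a member and a comparison, 163 kept their direction and side of the threshold in each such setting. Small values that changed sign without passing the test were counted as kept. Of 4231 recomputed values 49 lost a call, 24 gained one and 3 reversed: Aars in KO against WT at day 0, to 0.10 under TPM scaling and 0.23 under quantile normalization, and Lars in the WT response, to 0.09 under median-of-ratios scaling. The count of members higher in KO at day 2, 2 as reported, was 0 with no filter and with a 1.5-fold minimum, and 1 under median-of-ratios scaling, under quantile normalization, with no variance trend and with only the libraries compared. The 1.5-fold minimum left 16 lower and 1 higher in KO at day 0, 2 higher and 9 lower in the KO response, 10 higher and 1 lower in the WT response, and 1 higher and 14 lower in the interaction. The cause was not tested, beyond the minimum itself. Leaving out each library gave 0 to 2 higher and 34 to 36 lower in KO at day 2, 5 to 6 and 29 to 30 at day 0, 14 to 15 and 16 to 17 in the KO response, 21 to 23 and 10 to 11 in the WT response, and 8 to 9 and 26 to 28 in the interaction. TPM scaling moved the median of all genes by 0.11 in KO against WT at day 0, and quantile normalization by 0.11 in the WT response.

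The labels give same-numbered libraries nothing in common but the number. The correlations of their deviations were -0.055 to 0.087, against -0.095 to 0.058 for libraries of other numbers. Of 12 libraries 6 were closest to their own number, and these values cannot show whether libraries were paired. With a replicate block, members higher in KO at day 2 numbered 1, as Wars2 no longer passed (adjusted p = 0.0502 by limma, 0.0502 to 0.162 over the settings other than a left-out library that ended the call). The other 9 counts did not change. Depth limits Pars2 most, at 90 reads in its lowest library.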
